A study of Mus musculus with 13 samples.

Results

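The genes described here are the excision, mismatch and adduct bypass repair genes: 43 genes named by symbol, taken from base excision, nucleotide excision and mismatch repair, the sliding clamp with the polymerases that copy past adducts, and direct reversal. Of these, 42 were listed with a value in at least 1 of 9 RNA-seq libraries of mouse 2-cell embryos, out of 16739 genes listed in all. Tdg was not analysed here. The mean over the 9 libraries reached 1 FPKM (fragments per kilobase of transcript, scaled to library depth) for 34 of the 42, and these were tested among 9766 genes.

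The embryos came from in vitro fertilisation with sperm of Swiss males and were pooled in groups before RNA extraction. AAE embryos (3 libraries) were sired by males given acrylamide at 25 mg/kg per day by intraperitoneal injection on 5 days, with sperm collected 3 days after the last injection, when it had been exposed in the epididymis. AAS embryos (3 libraries) were sired by males given the same course, with sperm collected 24 days after it, when it had been exposed as spermatocytes. Control embryos (3 libraries) were sired by males injected with PBS. The labels give neither the males' age nor the number of embryos or sires behind a library. The p-values therefore rest on the spread between these libraries, which may be technical. The model used below (limma) also draws the spread of each gene toward that of genes at a similar level. Acrylamide was given to the fathers only. In bulk RNA, fewer cells holding an mRNA and less of it per cell cannot be told apart.

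Acrylamide, a compound formed in heated starchy food, is turned in the body into glycidamide, an epoxide that binds to purines of DNA. Base excision repair removes a single damaged base: a DNA glycosylase cuts it out, an endonuclease opens the strand, and a polymerase and a ligase close the gap. Nucleotide excision repair cuts out a short stretch around a bulky lesion, mismatch repair corrects copying errors, and bypass polymerases copy across lesions left in place. Mature sperm carry out little repair, and lesions they bring in are met by proteins and mRNAs stored in the egg, so the mRNA of a 2-cell embryo holds maternal stores beside the first transcripts of its own genome.

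The promoters of Ddb1, Msh3 and Neil3 are shown because their AAS libraries did not overlap those of another group in a comparison below and their means were above 10 FPKM. Parp2, Fen1 and Ogg1 also had such libraries, at lower levels, and Rev3l is named only. This choice was made after the values were seen. Each runs from 250 bases before to 50 bases after a RefSeq transcript start in build GRCm38.p6, and capitals mark GC boxes (GGGCGG on either strand). In Msh3 capitals also mark a pair of E2F motifs, TTTGGCGC at base 49 and TTTCGCGC on the other strand at base 53, which overlap. The Ddb1 window is chr19:10605347-10605646 on the plus strand, the Msh3 window chr13:92354954-92355253 on the minus strand and the Neil3 window chr8:53639016-53639315 on the minus strand.

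Ddb1: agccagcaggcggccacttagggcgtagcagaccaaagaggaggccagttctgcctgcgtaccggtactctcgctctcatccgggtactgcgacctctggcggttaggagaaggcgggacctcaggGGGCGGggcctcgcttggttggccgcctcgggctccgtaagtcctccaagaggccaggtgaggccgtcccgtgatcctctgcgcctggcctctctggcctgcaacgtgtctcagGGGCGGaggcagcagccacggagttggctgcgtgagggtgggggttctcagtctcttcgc
Msh3: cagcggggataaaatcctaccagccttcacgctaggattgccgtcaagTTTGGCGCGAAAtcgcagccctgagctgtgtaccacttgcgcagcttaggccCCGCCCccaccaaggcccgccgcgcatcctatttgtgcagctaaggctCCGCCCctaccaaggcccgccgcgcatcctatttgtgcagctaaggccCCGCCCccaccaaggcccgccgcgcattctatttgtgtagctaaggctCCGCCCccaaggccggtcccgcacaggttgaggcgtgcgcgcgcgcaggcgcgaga
Neil3: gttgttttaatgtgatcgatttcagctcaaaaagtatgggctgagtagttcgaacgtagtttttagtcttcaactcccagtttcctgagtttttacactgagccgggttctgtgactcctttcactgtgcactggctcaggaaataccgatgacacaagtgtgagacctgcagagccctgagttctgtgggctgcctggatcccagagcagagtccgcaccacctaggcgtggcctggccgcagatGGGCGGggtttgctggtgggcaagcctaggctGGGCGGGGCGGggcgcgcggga

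Ddb1 had GC boxes at bases 127 and 241. Msh3 had GC boxes at bases 101, 149, 197 and 245, and Neil3 at bases 247, 279 and 284, the last pair overlapping. Promoter entries were found for 35 of the 42 listed members, 43 entries in all, since a gene can have several starts. A GC box was present in 67.4% of these entries, against 35.7% of all 32851 promoter entries. The CCAAT box (CCAAT) was present in 48.8% of member entries, against 37.4% of all. The E2F motif TTTCGCGC was present in 6.98% of member entries (Lig1, Msh3 and Nthl1), against 0.323% of all. TTTGGCGC was present in 2.33%, which is 1 entry (Msh3), against 0.514%. The TATA box (TATAAA) was rarer in members, at 4.65% of their entries against 13.6% of all. The median number of CpG dinucleotides per 300-base window was 21 in member entries, against 7 in all entries. No set of entries matched to the members in CpG number was used, and the part of CpG number in the motif shares was not tested. These are matches of letters on either strand, not sites shown to be bound.

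The embryo libraries listed 11625 to 13914 genes in AAE, 12173 to 12673 in AAS and 13675 to 14392 in control. The number of reads behind them is unknown, since the files give FPKM only. AAE replicate 3 and AAS replicate 2 had the lowest median correlation with the other libraries, 0.872 and 0.870, against 0.894 to 0.927 for the rest. All 10 markers of the 2-cell embryo and all 10 of the oocyte had means of at least 1 FPKM. Of the markers of cells that could come along, 3 of 10 for cumulus cells reached that mean (summed FPKM 15.9 to 38.0 in AAE, 22.3 to 41.1 in AAS and 44.3 to 47.9 in control, largely Nr5a2, which early embryos also use). No leukocyte marker of 7 did, and 1 of 6 red cell and 1 of 6 epididymal markers did. Of 10 sperm and spermatid markers 1 did (Odf2), while the protamines and transition proteins averaged under 1 FPKM. The part of the lower cumulus sums in the AAE and AAS libraries in the results below was not tested.

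In each embryo library a few genes held most of the summed FPKM of the listed members. FPKM is scaled by transcript length, so levels can be set beside each other between genes. Pcna, Ddb1 and Rad23b were the 3 highest members in all 9 libraries and held 46.3% to 53.7% of the summed FPKM of the members, a sum that ran between 771.0 and 905.0 over the libraries. With Ercc5, Rev3l, Neil3, Msh3 and Msh6 the share came to 75.6% to 84.5%. These shares depend on which genes the list holds. Among further genes of the same pathways, Cul4b, Usp7, Usp1 and Pold3 had control means of 345, 185, 173 and 159 FPKM, against 168 FPKM for Pcna. In control embryos 3 members had a mean above 100 FPKM, 12 lay between 10 and 100, 17 between 1 and 10, and 10 below 1.

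**Figure D1:**
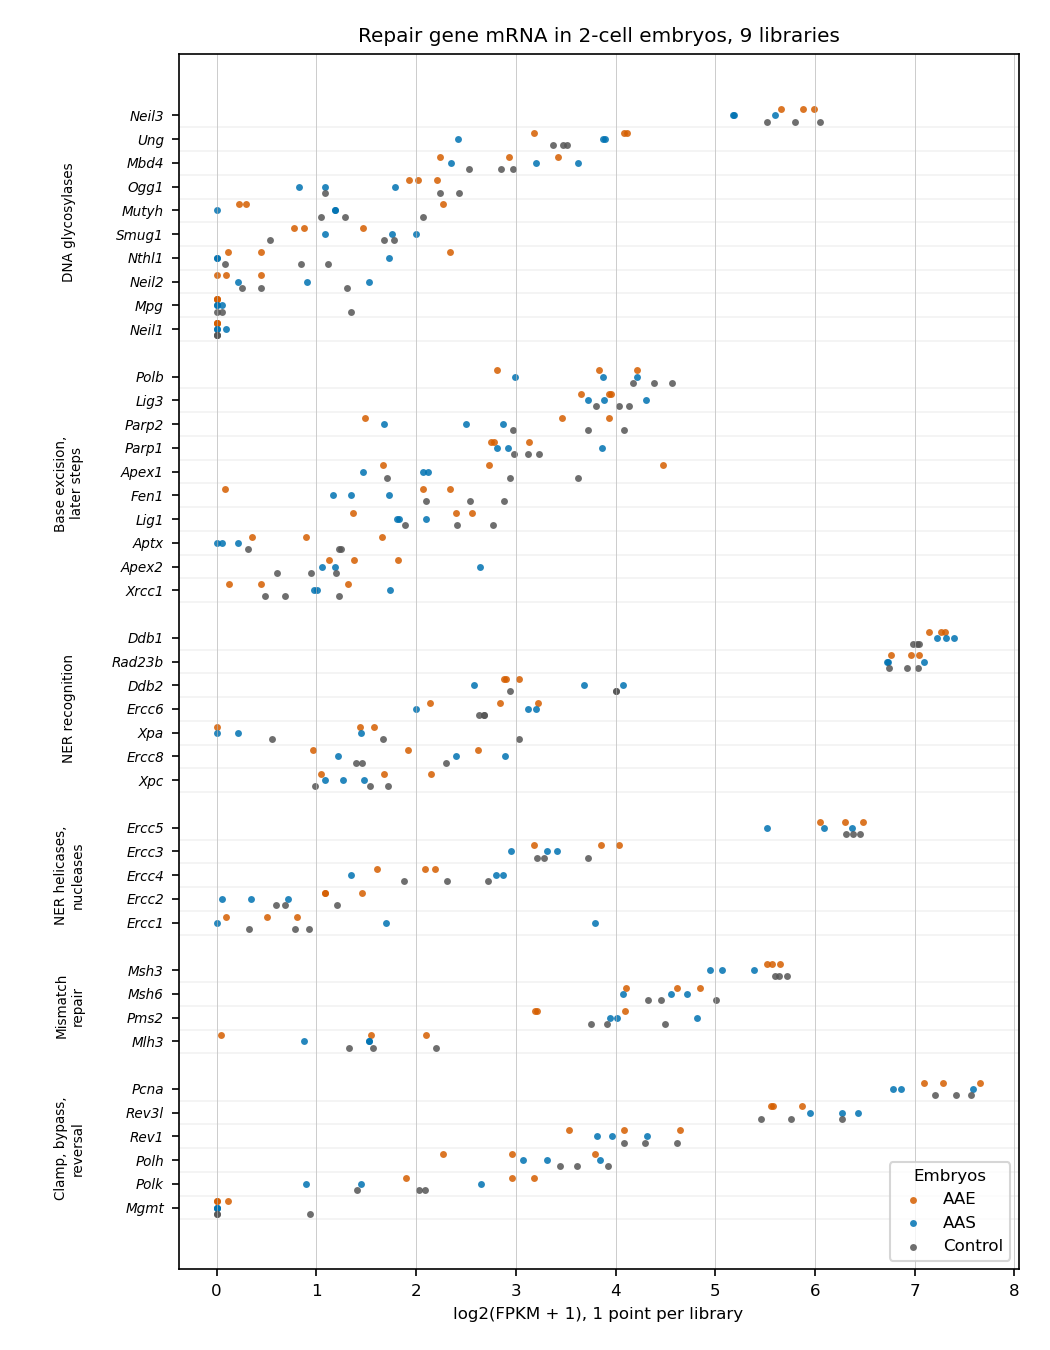
Level of the 42 listed members in each library, as log2(FPKM + 1) on the horizontal axis, with 1 point per library (AAE orange, AAS blue, Control grey) and members grouped by role and sorted by mean. A few members of each pathway stand far to the right, Pcna, Ddb1 and Rad23b first, while Neil1, Mpg and Mgmt lie at or near 0 in most libraries.

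Among the DNA glycosylases Neil3, which removes oxidised bases and acts on single-stranded DNA, was by far the most abundant. Its level was 49.4, 62.7 and 58.0 FPKM in AAE, 47.5, 35.5 and 35.1 FPKM in AAS, and 44.8, 54.6 and 65.2 FPKM in control embryos. Next came Ung, which removes uracil, with means of 13.5 FPKM in AAE, 10.6 in AAS and 9.96 in control. Mbd4, which removes thymine or uracil opposite guanine, had means of 6.68, 7.86 and 5.96 FPKM in AAE, AAS and control embryos. Ogg1, which removes oxidised guanine, Mutyh, which removes adenine opposite it, and the uracil glycosylase Smug1 had group means between 0.847 and 3.16 FPKM. The remaining glycosylases were scarce: Mpg, which removes alkylated purines, was listed in 3 of 9 libraries and reached 1.55 FPKM in control replicate 1, and Neil1 was listed in 1 library at 0.07 FPKM. Neil2 and Nthl1, which act on oxidised bases, averaged 0.597 and 0.983 FPKM over the 9 libraries.

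Among the genes that finish base excision and single-strand break repair, Polb, the polymerase that fills the gap, and Lig3, which seals it, led. Control means were 19.9 FPKM for Polb and 15.0 FPKM for Lig3. Parp2 and Parp1, which sense strand breaks, followed at 11.7 and 7.66 FPKM in control embryos. Apex1, the main endonuclease at sites without a base, was uneven: 5.65, 21.2 and 2.18 FPKM in AAE, 3.35, 1.76 and 3.20 FPKM in AAS, and 11.3, 6.69 and 2.27 FPKM in control embryos. Its groups overlapped, and its within-group SD on the log2 scale was 1.01, second among the tested members to that of Ercc1. Xrcc1, the scaffold of single-strand break repair, and Aptx, which cleans failed ligation ends, averaged under 1 FPKM and were not tested.

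Nucleotide excision repair held the pair of abundant recognition genes. Rad23b, which stabilises the lesion sensor Xpc, was at 107, 124 and 131 FPKM in AAE, 105, 135 and 104 FPKM in AAS, and 106, 130.1 and 120.1 FPKM in control embryos, with all groups overlapping. Its partner Xpc had a control mean of 1.72 FPKM. Ddb1, which with Ddb2 recognises lesions in chromatin and is also the adaptor of cullin 4 ubiquitin ligases, had a control mean of 129 FPKM, and Ddb2 of 12.3 FPKM. Ercc6 and Ercc8, which act where a lesion stalls transcription, had control means of 5.34 and 2.44 FPKM. Among the nucleases Ercc5 was at 88.6, 65.3 and 77.8 FPKM in AAE, 81.8, 44.9 and 66.9 FPKM in AAS, and 82.2, 78.5 and 86.6 FPKM in control embryos. The other incision nuclease, Ercc4 with its partner Ercc1, was lower, at control means of 4.08 and 0.623 FPKM. Of the TFIIH helicases, Ercc3 had a control mean of 9.72 FPKM, and Ercc2 averaged 0.819 FPKM over the 9 libraries, below the filter.

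In mismatch repair, Msh3, which recognises insertion and deletion loops, had the highest level, and Msh6, which recognises mispaired bases, was lower in every library. Msh6 was at 16.1, 27.8 and 23.6 FPKM in AAE, 22.4, 15.9 and 25.3 FPKM in AAS, and 19.04, 20.99 and 31.2 FPKM in control embryos, and its groups overlapped. The endonuclease subunits Pms2 and Mlh3 had control means of 16.03 and 2.36 FPKM. Among the bypass genes, the sliding clamp Pcna, which recruits polymerases to damaged templates, was at 136, 201 and 155 FPKM in AAE, 191, 115 and 109 FPKM in AAS, and 188, 147 and 169 FPKM in control embryos. AAS replicates 2 and 3 were the lowest for Pcna, but replicate 1 lay above every control library. Rev3l, the catalytic subunit of polymerase zeta, and Rev1, its scaffold, had control means of 57.5 and 19.3 FPKM, against 11.8 FPKM for Polh and 2.66 FPKM for Polk, which insert bases opposite lesions. Mgmt, which takes alkyl groups off guanine directly, was listed in 2 libraries, at 0.08 FPKM in AAE replicate 1 and 0.91 FPKM in control replicate 3.

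In the order of control means, Pcna exceeded Ddb1, Rad23b exceeded Ercc5, Ercc5 exceeded Rev3l and Msh3 exceeded Msh6 by more than the sum of their SDs. The neighbours Ddb1 and Rad23b did not differ by that much, nor did any adjacent pair among Rev3l, Neil3 and Msh3, or from Msh6 down to Ung.

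The comparison of AAE with control embryos asks whether exposure of sperm in the epididymis was followed by a different embryo mRNA content. No tested member passed an adjusted p of 0.05 (limma on log2(FPKM + 1), Benjamini-Hochberg over 9766 genes), 0 of 34, and neither did any other gene (0%). None of the 34 had an unadjusted p under 0.05 either, against 2.11% of all tested genes. Ddb1 was the 1 member whose groups did not overlap, against 8.51% of all genes; it was higher in AAE (3.73% of all genes), and no member was lower (4.78%). The log2 fold changes were negative for 21 of the 34, against 5411 of all 9766 genes. Their median was -0.12, against -0.05 for all genes, and they ran from -1.01 to 0.84. Without AAE replicate 3 the median was -0.02 (-0.002 for all genes), and without AAE replicate 2 it was -0.23 (-0.085 for all genes). By role the medians were 0.07 for 6 glycosylases, -0.24 for 8 later base excision genes, 0.07 for 7 lesion recognition genes, -0.16 for 4 helicases and nucleases, -0.27 for 4 mismatch repair genes and -0.17 for 5 clamp and bypass genes.

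**Figure D2:**
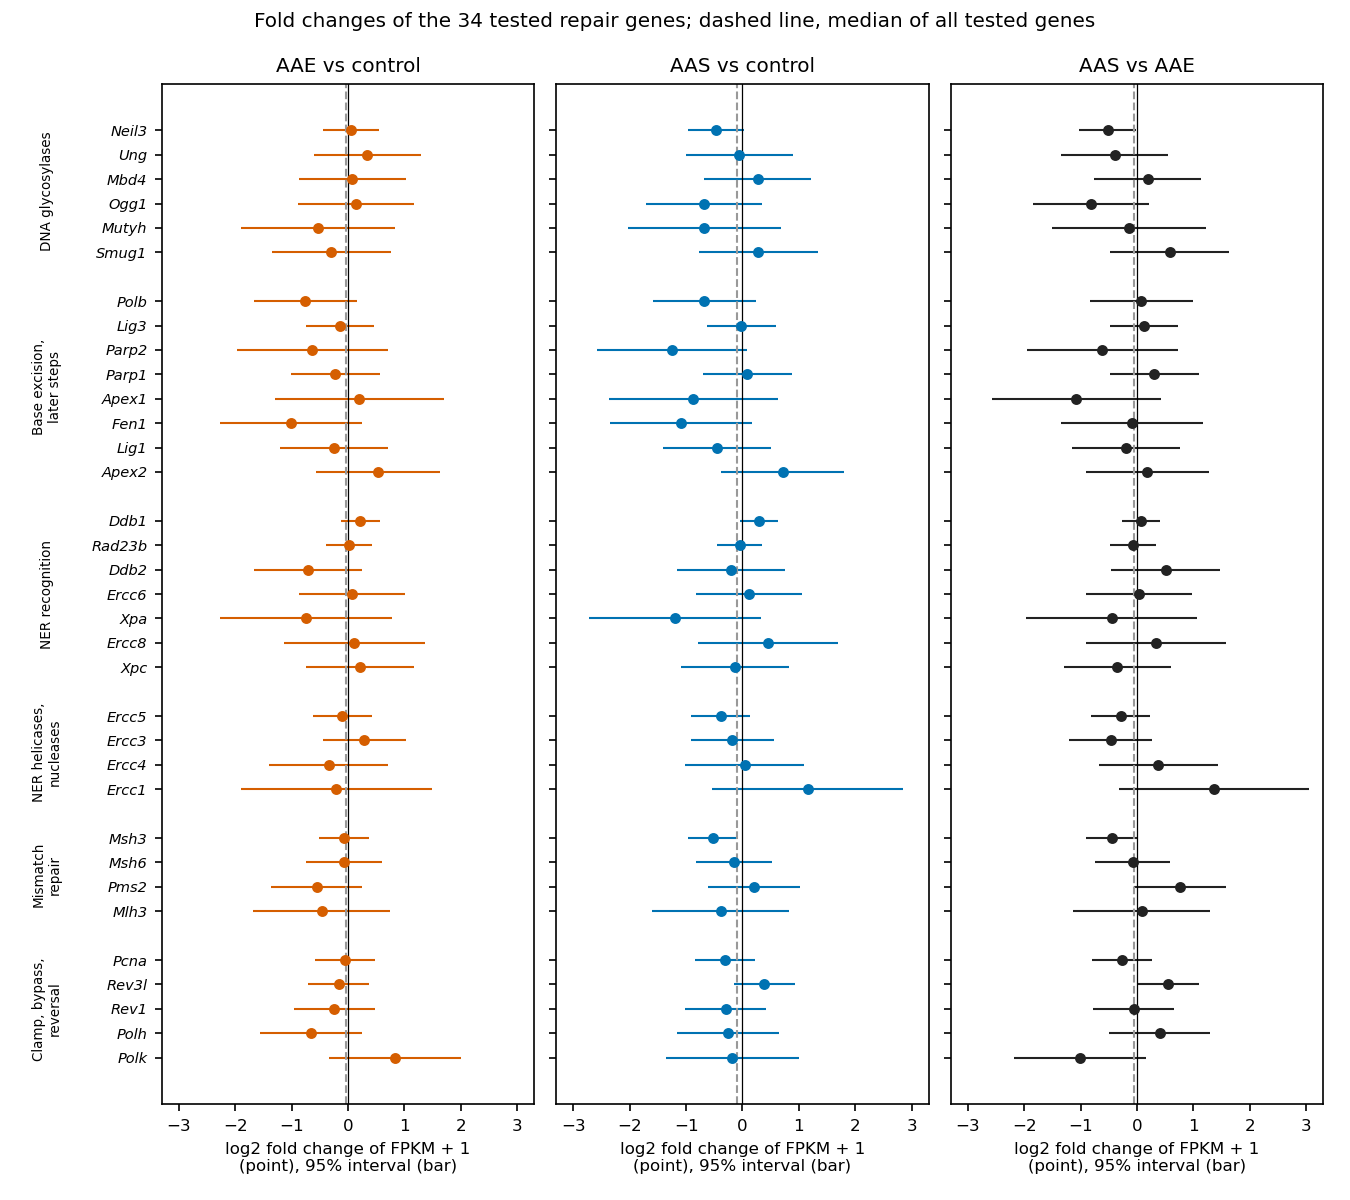
Log2 fold change of FPKM + 1 (points) with its 95% interval (bars) for the 34 tested members in AAE vs control (left), AAS vs control (middle) and AAS vs AAE (right), grouped by role, with a dashed line at the median of all tested genes. Most intervals include 0, and the widest belong to low members such as Ercc1 and Xpa.

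Ddb1 was at 157, 140.2 and 153 FPKM in AAE and 131, 129 and 125 FPKM in control embryos. Every AAE library was higher than every control library, by a log2 fold change of 0.22 (SE 0.156, limma unadjusted p = 0.185, adjusted p = 1). An exact two-sided permutation test gave p = 0.1, the smallest that 3 against 3 libraries allow. The fold change ran from 0.19 to 0.27 over the other settings tried. Ddb1 was picked out after its values were seen, because its groups did not overlap.

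The member with the smallest p was Polb, at 17.6, 13.2 and 6.04 FPKM in AAE and 22.7, 19.9 and 17.1 FPKM in control embryos. AAE replicate 1 lay above control replicate 3, so the groups overlapped. The log2 fold change was -0.76 (SE 0.416, limma unadjusted p = 0.0964, adjusted p = 1) and -0.35 without AAE replicate 3. Fen1, which cuts the flap left by long-patch synthesis, was at 0.06, 4.05 and 3.19 FPKM in AAE and 3.28, 6.35 and 4.80 FPKM in control embryos. One library, AAE replicate 1, was near 0, and the Fen1 log2 fold change of -1.01 (SE 0.574, limma unadjusted p = 0.106) became -0.30 without it. Fen1 overlaps Tmem258 over 192 bases of the annotation, and without a stated strand their reads cannot be told apart.

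Ddb2 was at 7.17, 6.47 and 6.36 FPKM in AAE and 6.69, 15.1 and 15.0 FPKM in control embryos. The AAE libraries were close together, and control replicate 1 lay among them, for a log2 fold change of -0.71 (SE 0.437, limma unadjusted p = 0.131). Ddb2 overlaps Acp2 over 2554 bases, so the same limit on strand applies. Polh was at 12.8, 6.78 and 3.83 FPKM in AAE and 14.2, 11.3 and 9.89 FPKM in control embryos. Its groups overlapped, and its log2 fold change of -0.65 (SE 0.411, limma unadjusted p = 0.139) was -1.04 without AAE replicate 1 and -0.29 without AAE replicate 3.

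Polk was the member with a positive difference among these 6, at 6.79, 2.72 and 8.05 FPKM in AAE and 1.65, 3.25 and 3.09 FPKM in control embryos. AAE replicates 1 and 3 lay above all controls and replicate 2 within them, for a log2 fold change of 0.84 (SE 0.534, limma unadjusted p = 0.145), or 0.48 with array quality weights. The authors' deposited table gave Polk a log2 fold change of 1.20 with p = 0.0227 and an adjusted p of 0.863. Pms2 was at 16.03, 8.28 and 8.11 FPKM in AAE and 21.6, 14.0 and 12.5 FPKM in control embryos. AAE replicate 1 lay within the controls and the other AAE libraries below them, and the log2 fold change of -0.56 (SE 0.369, limma unadjusted p = 0.159) was -0.85 without AAE replicate 1 and -0.34 without control replicate 1. In this comparison the authors' deposited table gave no member of 36 an adjusted p under 0.05 and 1 an unadjusted p under 0.05, against 6% of all its genes.

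The comparison of AAS with control embryos asks the same for exposure at the spermatocyte stage. Again 0 of 34 tested members passed an adjusted p of 0.05 in limma, and 0% of all genes did. An unadjusted p under 0.05 was reached by 1 member, Msh3, against 6.16% of all genes. Groups did not overlap in 4 of 34 members, 11.8%, against 13.1% of all genes: Ddb1 was higher in AAS (4.52% of all genes), and Msh3, Parp2 and Fen1 were lower (8.6%). The median log2 fold change of the members was -0.18 and that of all genes -0.11, with 23 of 34 members and 5799 of all 9766 genes negative. With each library centred at its median, all genes stood at -0.04 and the members at -0.11. Without control replicate 3 the members' median was -0.07, above the -0.15 of all genes. Without control replicate 2 it was -0.12, against -0.10 for all genes. The medians by role were -0.26 for glycosylases, -0.56 for later base excision genes, -0.05 for lesion recognition genes, -0.07 for helicases and nucleases, -0.27 for mismatch repair genes and -0.25 for clamp and bypass genes. The helicases and nucleases include Ercc1 at 1.15, which passed the filter only through AAS replicate 1, beside Ercc3 at -0.18, Ercc4 at 0.04 and Ercc5 at -0.39. Ercc1 and Xpa, both only described below, enter the counts and medians of the 34 members in all 3 comparisons.

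Msh3 was at 29.8, 40.8 and 32.4 FPKM in AAS and 51.6, 48.9 and 47.5 FPKM in control embryos. All 3 AAS libraries lay below all 3 controls. The means were 34.3 ± 5.75 FPKM in AAS and 49.3 ± 2.08 FPKM in control embryos (SD, n = 3 each), a log2 fold change of -0.52 (SE 0.204, limma unadjusted p = 0.0264, adjusted p = 0.750). Over the other settings it ran from -0.65 to -0.39, with unadjusted p from 0.00714 to 0.109.

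Ddb1 was at 148, 167 and 158 FPKM in AAS embryos, all above the control libraries of 131, 129 and 125 FPKM. The log2 fold change was 0.29 (SE 0.156, limma unadjusted p = 0.0859, adjusted p = 0.794). It ran from 0.25 to 0.43 over the other settings, with unadjusted p from 0.0304 to 0.223. The same control libraries enter the AAE and the AAS comparison, so the Ddb1 differences of both are not independent. The authors' deposited table gave 0.40 for AAS vs control, with p = 0.0546.

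Neil3 had AAS values of 47.5, 35.5 and 35.1 FPKM and control values of 44.8, 54.6 and 65.2 FPKM. AAS replicate 1 lay above control replicate 1, and the other AAS libraries lay below all controls. The log2 fold change was -0.47 (SE 0.227, limma unadjusted p = 0.0639, adjusted p = 0.78). Parp2 was at 4.64, 2.19 and 6.34 FPKM in AAS and 16.02, 6.85 and 12.2 FPKM in control embryos. The groups just missed each other, with 6.34 FPKM in the highest AAS library and 6.85 FPKM in the lowest control. Its log2 fold change of -1.25 (SE 0.608, limma unadjusted p = 0.0643, adjusted p = 0.78) became -0.80 with array quality weights.

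Fen1 was at 1.24, 1.54 and 2.31 FPKM in AAS and 3.28, 6.35 and 4.80 FPKM in control embryos, without overlap. The log2 fold change was -1.09 (SE 0.574, limma unadjusted p = 0.0831, adjusted p = 0.792). Its neighbour Tmem258, which shares 192 bases with it, was at 1.51, 1.80 and 0.17 FPKM in AAS and 4.45, 5.63 and 2.99 FPKM in control embryos, also without overlap. Xpa, which verifies the lesion before incision, was at 0, 0.16 and 1.73 FPKM in AAS and 7.17, 0.47 and 2.18 FPKM in control embryos. Control replicate 1 stood apart, and the log2 fold change of -1.20 was -0.56 without it. The AAS mean of Xpa was 0.630 FPKM, and it passed the filter through the other groups. Its fold change is therefore a description of these libraries and not a test.

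In the authors' deposited table for AAS vs control, 0 of 35 members had an adjusted p under 0.05, while 35 of all its 10216 genes did. The authors' deposited table gave 3 members an unadjusted p (DESeq2 is named in the processing notes) under 0.05, against 9.6% of its genes: Parp2 at -1.33 (p = 0.0147), Fen1 at -1.39 (p = 0.0251) and Ercc1 at 3.10 (p = 0.0333). Ercc1 was at 12.9, 0 and 2.25 FPKM in AAS and 0.90, 0.72 and 0.25 FPKM in control embryos. Its value therefore rests largely on AAS replicate 1. Msh3 had a log2 fold change of -0.41 and an adjusted p of 0.784 in the authors' deposited table.

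**Figure D3:**
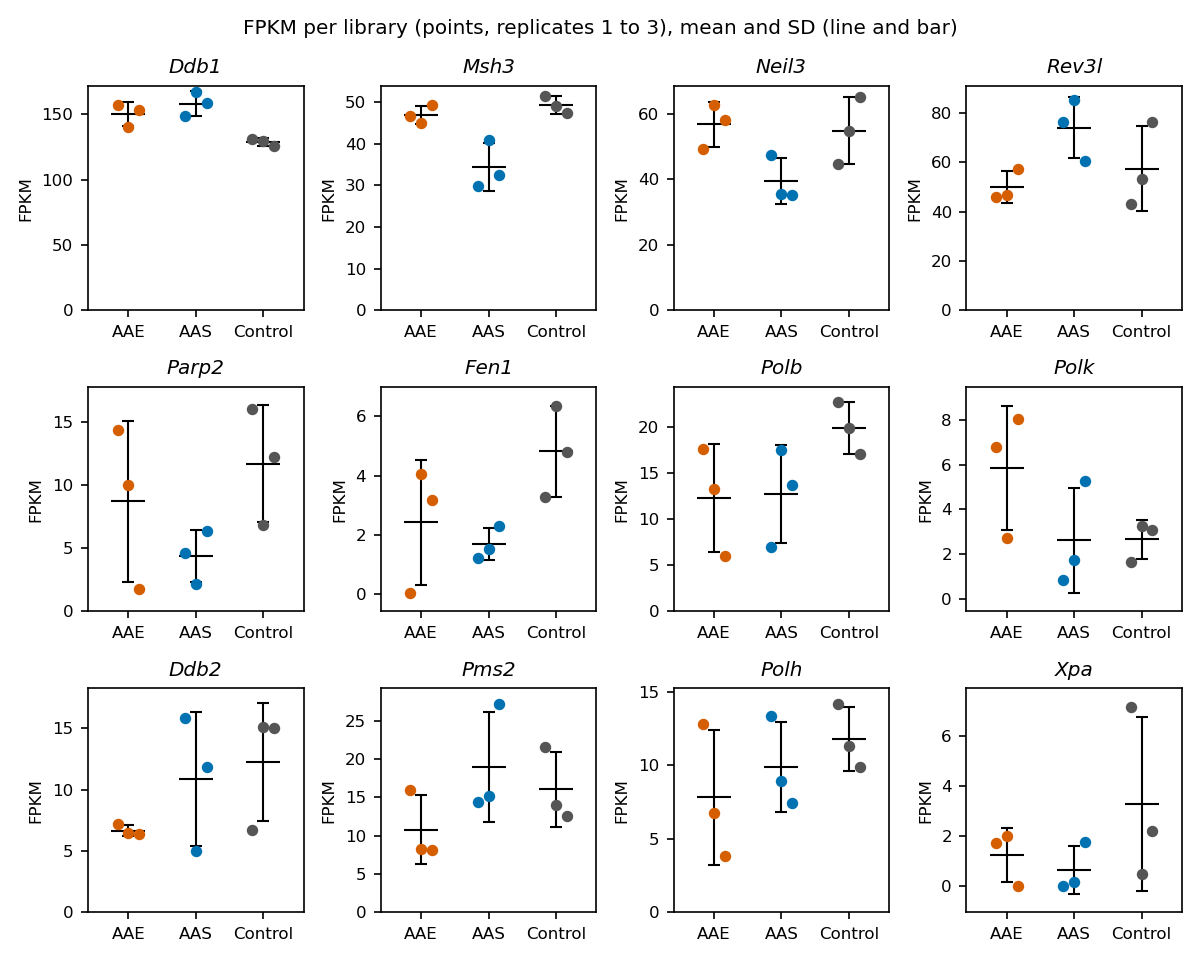
FPKM of 12 members in each library (points, with replicates 1 to 3 from left to right), with the mean (line) and SD (bar) of the AAE, AAS and Control groups of 3 libraries. The AAS points of Msh3 and Fen1 lie below all their control points, the AAE and AAS points of Ddb1 lie above all its control points, and the Xpa mean in control embryos rests on 1 library.

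AAS and AAE embryos differ in when the sperm was exposed and collected, at the same dose. In limma 0 of 34 members passed an adjusted p of 0.05, as did 0% of all genes, and 3 had an unadjusted p under 0.05, against 7.73% of all genes. Groups did not overlap in 4 members, 11.8%, against 11.3% of all genes. Rev3l was higher in AAS (4.28% of all genes), and Neil3, Msh3 and Ogg1 were lower in AAS (6.98%). The median log2 fold change of the members was -0.06 and that of all genes -0.05, and both moved to 0.11 and 0.06 when FPKM were rescaled to a common sum. The members' median was 0.12 without AAE replicate 2 (-0.005 for all genes) and -0.25 without AAE replicate 3 (-0.099 for all genes).

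Neil3 was lower in all 3 AAS libraries than in any AAE library, with means of 39.4 ± 7.04 FPKM in AAS and 56.7 ± 6.77 FPKM in AAE embryos (SD, n = 3 each). The log2 fold change was -0.52 (SE 0.227, limma unadjusted p = 0.0413, adjusted p = 0.623). Rev3l was at 76.3, 85.2 and 60.8 FPKM in AAS and 46.0, 46.6 and 57.4 FPKM in AAE embryos, against 43.0, 53.3 and 76.4 FPKM in control embryos. The control libraries spanned the AAE group and overlapped the AAS group, whose replicate 2 lay above them all. The log2 fold change of AAS over AAE was 0.55 (SE 0.247, limma unadjusted p = 0.0470, adjusted p = 0.639). Msh3 averaged 34.3 ± 5.75 FPKM in AAS and 46.9 ± 2.24 FPKM in AAE embryos (SD, n = 3 each), for a log2 fold change of -0.45 (SE 0.204, limma unadjusted p = 0.0488, adjusted p = 0.642).

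The remaining members named by their small p had overlapping groups. Pms2 was at 14.4, 15.2 and 27.2 FPKM in AAS and 16.03, 8.28 and 8.11 FPKM in AAE embryos, a log2 fold change of 0.76 (SE 0.369, limma unadjusted p = 0.0626), or 0.48 without AAS replicate 3. Polk was at 0.86, 1.72 and 5.29 FPKM in AAS and 6.79, 2.72 and 8.05 FPKM in AAE embryos, a log2 fold change of -1.01 (SE 0.534, limma unadjusted p = 0.0834), or -0.63 without AAS replicate 1. AAE replicate 1 of Pms2 and AAS replicate 3 of Polk lay within the range of the other group. Ercc1 was at 12.9, 0 and 2.25 FPKM in AAS and 0.42, 0.75 and 0.07 FPKM in AAE embryos, and AAS replicate 2 was listed at 0. Ercc1 passed the filter only through AAS replicate 1: without that library it falls under the filter and has no fitted value. Its log2 fold change of 1.36, or 2.28 without AAS replicate 2, is therefore a description of these libraries and not a test. Of its bases 518 overlap Cd3eap. Ogg1, singled out after its values were seen, was at 0.77, 2.45 and 1.13 FPKM in AAS and 2.81, 3.61 and 3.06 FPKM in AAE embryos, without overlap (log2 fold change -0.82, SE 0.467, limma unadjusted p = 0.107). It shares 754 annotated bases with Camk1, which stayed at or below 0.09 FPKM in all 9 libraries.

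In the authors' deposited table for AAS vs AAE, 0 of 37 members had an adjusted p under 0.05, and 4 had an unadjusted p under 0.05, against 8.65% of its genes. In the authors' deposited table Rev3l stood at 0.61 (p = 0.0184), Ercc1 at 3.68 (p = 0.0282) and Pms2 at 0.84 (p = 0.0486). In the authors' deposited table Aptx stood at -4.04 (p = 0.00357). It averaged 0.067 FPKM in AAS and 1.10 FPKM in AAE embryos and was below the filter used for limma.

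Leaving out AAE replicate 3 and AAS replicate 2, the libraries of lowest correlation, kept the sign of every limma fold change of a member named above. Ddb1 was then at 0.21 in AAE vs control and 0.25 in AAS vs control (limma unadjusted p = 0.272 and 0.185). Msh3 was at -0.65 in AAS vs control and -0.54 in AAS vs AAE (limma unadjusted p = 0.0115 and 0.0397). Neil3 stood at -0.40 and -0.44 in these comparisons (limma unadjusted p = 0.148 and 0.149), so that its unadjusted p in AAS vs AAE no longer lay under 0.05. Parp2 was at -0.91 in AAS vs control (limma unadjusted p = 0.0454), and Rev3l was at 0.55 in AAS vs AAE (limma unadjusted p = 0.0938). No adjusted p came under 0.05.

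Of 60 further genes of the same pathways, 59 were listed and 53 were tested. These were replication factors, TFIIH subunits, cullin ligase parts, break-end enzymes, other bypass polymerases and the enzymes that modify Pcna. None of the 53 passed an adjusted p of 0.05 in limma in any of the 3 comparisons. An unadjusted p under 0.05 was reached by 0 in AAE vs control (2.11% of all genes), 2 in AAS vs control (6.16%) and 4 in AAS vs AAE (7.73%). Rfc4, which passed the filter only through the AAE and control libraries, was counted in both AAS comparisons. The median log2 fold changes of the 53 genes were -0.05, -0.23 and -0.16 in these comparisons, against -0.05, -0.11 and -0.05 for all genes.

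The AAE genes with the smallest p were Rad18, Ascc3 and Pold3. Rad18, the ligase that ubiquitinates Pcna for bypass, was at 15.2, 22.99 and 16.8 FPKM in AAE and 22.7, 37.2 and 31.5 FPKM in control embryos, overlapping by 1 library (log2 fold change -0.69, SE 0.340, limma unadjusted p = 0.0651). Ascc3, a helicase of alkylation repair, was at 27.9, 32.5 and 26.2 FPKM in AAE and 37.0, 36.8 and 41.3 FPKM in control embryos, without overlap (-0.40, SE 0.215, unadjusted p = 0.0881). Pold3, a subunit shared by replicative polymerase delta and polymerase zeta, was at 192, 187 and 215 FPKM in AAE and 145, 184 and 148 FPKM in control embryos, without overlap (0.32, SE 0.173, unadjusted p = 0.0899). All 3 had an adjusted p of 1 in limma.

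The AAS genes with the smallest p were Rfc4, Gtf2h1 and Pole2, all lower in AAS embryos. Rfc4, a subunit of the loader of Pcna, was at 0.14, 0 and 0.31 FPKM in AAS and 1.85, 1.97 and 1.03 FPKM in control embryos, without overlap. Its AAS mean was 0.15 FPKM, and Rfc4 passed the filter only through the AAE and control libraries. Its log2 fold change of -1.18 is therefore a description of these libraries and not a test. Gtf2h1, a core subunit of TFIIH, was at 29.7, 15.6 and 29.7 FPKM in AAS and 34.4, 44.4 and 35.1 FPKM in control embryos, without overlap (log2 fold change -0.63, SE 0.286, limma unadjusted p = 0.0487, adjusted p = 0.78). Pole2, a subunit of polymerase epsilon, was at 8.46, 6.54 and 3.44 FPKM in AAS and 14.0, 8.73 and 8.22 FPKM in control embryos, with 1 AAS library above the lowest control (-0.70, SE 0.372, unadjusted p = 0.0874, adjusted p = 0.795).

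The spread between libraries differed with the level of the member. Across the 34 tested members Spearman's rho between the mean level and the within-group SD of log2(FPKM + 1) was -0.74, a description across genes measured in the same libraries. The median SD was 0.307 for the 14 members with a mean of at least 10 FPKM and 0.578 for the 20 below. Ddb1 had an SD of 0.072 and Msh3 of 0.141, each below the 5th percentile of genes at its level (0.116 for genes from 100 FPKM and 0.171 for genes from 20 to 50 FPKM). Since limma draws such small SDs toward those of genes at a similar level, their SEs of 0.156 and 0.204 exceed what their own libraries give. Ercc1, at 1.13, had the highest of the 34. Mean variances of the members were 0.414 in AAE, 0.390 in AAS and 0.202 in control embryos, and those of all tested genes 0.442, 0.536 and 0.216. The coefficient of variation was higher in AAE than in control embryos for 23 of the 34 and higher in AAS than in control for 24, with medians of 40.7% in AAE, 38.8% in AAS and 29.9% in control. No such count was made over all tested genes, whose variances were also higher in AAE and AAS.

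**Figure D4:**
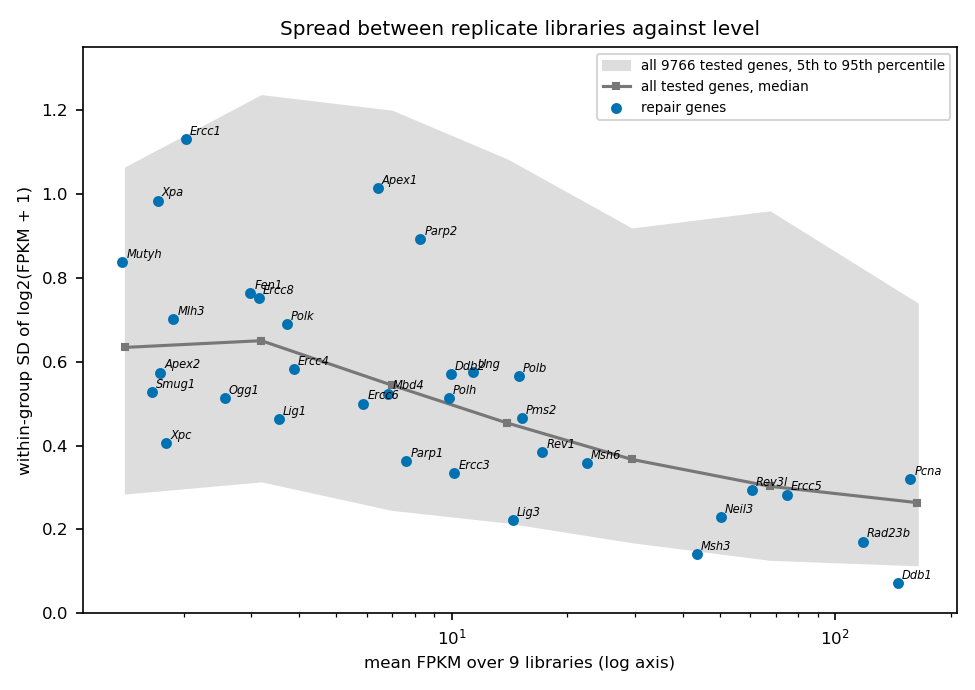
Within-group SD of log2(FPKM + 1) on the vertical axis against the mean FPKM over 9 libraries (log axis) for the 34 tested members (points), with the median (line) and the 5th to 95th percentile (band) of all 9766 tested genes in bins of level. The spread falls with level, Ddb1 lies below the band and Msh3 at its lower edge, and Ercc1 is the highest member.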

How the data were processed

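Embryo libraries were made with a Nugen Trio kit, per the labels. The deposited values are FPKM for each transcript, and those at 0 are left out of the files. The submitters' processing notes name HISAT2 2.0.4, DESeq2 and mm10; the strand of counting is not given in the sources used here. The authors' deposited tables also hold log2 fold changes and p-values, used only where named. Sperm small RNA libraries were not used here.

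FPKM were summed per gene, an unlisted gene being taken as 0, which can be a failed estimate. Genes averaging at least 1 FPKM (9766 of 16739) were fitted as log2(FPKM + 1) over all 9 libraries with limma 3.58.1 in R 4.3.3 (eBayes with trend, Benjamini-Hochberg at 0.05, two-sided). This scale understates changes of low genes. The smallest steps between low values did not give whole reads, so depth is unknown. The fit was tested on simulated data. The members and lists were chosen with earlier results of these data known. Values are given for the 6 tested members with the smallest p per comparison, the 8 with the highest control means, and 3 other pathway genes for each comparison with control; members without overlap were added after seeing values. Alternatives were other pseudocounts, filters, scalings, weights, a replicate block and leaving out libraries. Positions and promoters are from RefSeq GRCm38.p6. Figures used matplotlib 3.10.9, pandas 2.3.3 and NumPy 2.4.6 under Python 3.11.15.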

Additional observations from a re-analysis of the deposited data

Results flagged for a closer look

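Rev3l stood on opposite sides of the control mean in AAS and AAE embryos. All 3 AAS libraries (60.8 to 85.2 FPKM) lay above the control mean of 57.5 FPKM, and all 3 AAE libraries (46.0 to 57.4 FPKM) lay below it, the highest of them by little. The difference itself, AAS over AAE, was 0.55 on the log2(FPKM + 1) scale, and it did not pass the adjustment over all genes (limma, adjusted p = 0.639). The control libraries ran from 43.0 to 76.4 FPKM, across most of the range of both groups.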

How the results depend on the processing

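Over 20 other settings, none of the 392 fold changes recomputed for the named members changed sign, and none passed an adjusted p of 0.05. Many of these settings cannot move a fold change: other filters, only the 2 groups compared, no variance trend and the replicate block. Leaving out a library of the third group cannot either. The members were also named for a small p or for groups without overlap, so the unchanged signs are no separate evidence. The count of members at an unadjusted p under 0.05 moved more. In AAE vs control it was 0, but 2 with array quality weights and 0 to 3 when 1 library was left out. In AAS vs control it was 1, but 3 with no filter on low values, 3 with only the 2 groups compared in the fit and 3 with array quality weights; it was 0 with median centring and 0 with no variance trend. It was 4 without AAE replicate 3 and AAS replicate 2, an alternative chosen after seeing the data, and 0 to 3 when 1 library was left out. In AAS vs AAE it was 3, but 5 with no filter, 1 with median centring, 1 with only the 2 groups compared, 0 with no variance trend and 0 to 3 when 1 library was left out. With the largest transcript in place of the sum, also chosen after seeing the data, it was 1. A planned setting with the transcript of highest mean was not run, because the files give transcripts no identifier. With the replicate block the count in AAS vs AAE was 0. Deviations from the group means correlated at -0.176 to 0.206 for same-numbered libraries and at -0.245 to 0.195 for other pairs. This cannot settle whether replicate numbers pair the samples, since the deviations within a group of 3 are tied together. The cause of the shifts in these counts was not tested. Unknown depth limits the low members, which had the widest spread.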

Other observations

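Transcription of 11 members starts within 1000 bases of a neighbour on the other strand in RefSeq. Polk is paired in this way with Cert1, which carries ceramide between membranes, at 154 bases. Cert1 was at 47.4, 46.9 and 47.0 FPKM in AAS, 40.3, 30.4 and 28.6 FPKM in AAE and 32.1, 40.0 and 41.0 FPKM in control embryos. Its AAS libraries were thus the highest. Polk means were 2.62 FPKM in AAS and 2.66 FPKM in control embryos, a log2 fold change of -0.18. The log2 fold changes of AAS over AAE were 0.51 for Cert1 and -1.01 for Polk. Pms2 is paired with Aimp2, a scaffold of transfer RNA synthetases, at 160 bases, and the log2 fold changes of AAS over AAE were 0.76 for Pms2 and -0.10 for Aimp2. Polh is paired with Xpo5, the exporter of microRNA precursors, at 168 bases, and their log2 fold changes of AAE over control were -0.65 and 0.20. Fen1 is paired with Tmem258 at 279 bases, and their log2 fold changes were -1.01 and 0.37 for AAE over control, -1.09 and -1.38 for AAS over control. These pairs were picked after their values were seen, as neighbours of members named for their small p, and no difference within a pair was tested.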
